A study of Mus musculus with 12 samples.

Results

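The mitochondrial ribosomal protein genes of mouse 4T1 mammary carcinoma cells were examined, taken as the protein-coding genes whose symbol starts with Mrpl or Mrps followed by a digit. The rule found 78 of the 21786 protein-coding genes listed in the tables, of which 49 are Mrpl genes, named for the large subunit of the mitochondrial ribosome, and 29 are Mrps genes, named for the small subunit. All 78 passed the filter on low counts and were tested among 12555 genes.

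RNA-Seq was performed on 12 libraries in 3 groups of 4. Tu-Gr1+CD11b+-primed 4T1 cells (Tu-primed cells) had been cocultured for 48 hours with Gr1+ cells isolated by magnetic columns from the tumors of BALB/c mice bearing 4T1 tumors, at day 21 after injection by the labels. A figure legend of the study gives the same day for this isolation, while its methods name a later one. Spl-Gr1+CD11b+-primed 4T1 cells (Spl-primed cells) had been cocultured in the same way with Gr1+ cells from the spleens of such mice, and parental 4T1 cells had no coculture. The 2 cell types were kept apart by a Transwell with pores of 0.4 µm, and the tumor cells were lysed in the well. 4T1 is an established line from a mammary tumor of a BALB/c mouse, so all groups share 1 line and carry no engineered allele. Whether the replicates came from separate cultures or mice is not given in the sources used here, and p-values therefore measure the spread between these libraries.

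Mitochondria translate the few proteins encoded by their own DNA, which are core subunits of the respiratory chain and of ATP synthase, on ribosomes of their own. The RNA of these ribosomes is made inside the organelle, while their proteins are encoded by nuclear genes, made in the cytosol and imported. The small subunit binds the mRNA and decodes it, and the large subunit holds the peptidyl transferase center and the exit tunnel, which faces the inner membrane. In bulk RNA, fewer cells with a transcript and less of it per cell cannot be told apart.

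Library totals lay between 24566183 and 31637755 reads. The 4T1 epithelial markers (10 genes, led by keratins 8 and 18) summed to 2661 to 3946 counts-per-million (CPM) in parental, 2393 to 2577 in Spl-primed and 1901 to 2320 in Tu-primed cells. Krt8, Krt18 and Krt7 carried this fall, while the mean of Epcam was 70.7 CPM in parental, 87.1 in Spl-primed and 76.4 in Tu-primed cells and that of Cldn4 was 29.05, 37.98 and 38.5. The 20 granulocyte markers summed to 5.91 to 6.94, 5.24 to 7.12 and 6.63 to 12.04 CPM, of which nearly all came from S100a8, Cxcr2 and Ltf, while 8 of the 20, among them the granule genes Mpo, Elane, Camp and Ngp, had 0 reads in all 12 libraries. The 10 monocyte and macrophage markers summed to 4.91 to 5.66, 5.34 to 6.40 and 6.57 to 8.23 CPM, with no overlap between parental and Tu-primed cells, nearly all from Cd68 and Mrc1, while Adgre1, Ccr2, Ms4a7 and the 3 C1q genes had 0 reads. Reads on transcripts annotated as retained introns or as targets of nonsense-mediated decay (NMD) took 3.93% to 4.35% of the library in parental, 5.37% to 6.13% in Spl-primed and 5.64% to 5.83% in Tu-primed cells. Spl-primed replicate 3 stood apart from the other 3 libraries of its group, with short genes higher and long genes lower, and the calls and medians of the Mrpl and Mrps genes in the 2 comparisons that include it are also given without it. Other Spl-primed values include it. Parental replicate 4 also had short genes higher (median 0.09 against the parental mean) and long genes lower (-0.08). In parental replicates 1 and 2 short genes stood at -0.04 and -0.06 and long genes at 0.03 and 0.09. The part of the markers and of retained-intron reads in the results that follow was not tested.

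Transcripts of both subunits were lower in primed than in parental cells. Relative to the mean of the parental libraries, the median of the 49 Mrpl genes lay at -0.39, -0.34, -0.43 and -0.35 on the log2 CPM scale in Tu-primed replicates 1 to 4. In Spl-primed replicates 1 to 4 it lay at -0.26, -0.30, -0.05 and -0.37, and in the parental replicates at -0.06, -0.07, 0.05 and 0.10. All Tu-primed libraries were thus below all parental ones, as were Spl-primed replicates 1, 2 and 4, while Spl-primed replicate 3 lay between the parental libraries. For the 29 Mrps genes the medians were -0.43, -0.37, -0.50 and -0.38 in Tu-primed, -0.29, -0.35, -0.06 and -0.37 in Spl-primed and -0.07, -0.13, 0.06 and 0.10 in parental replicates. The median of all genes tested was at most 0.035 from 0 in the same 12 libraries, close to where the normalization sets it.

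**Figure D1:**
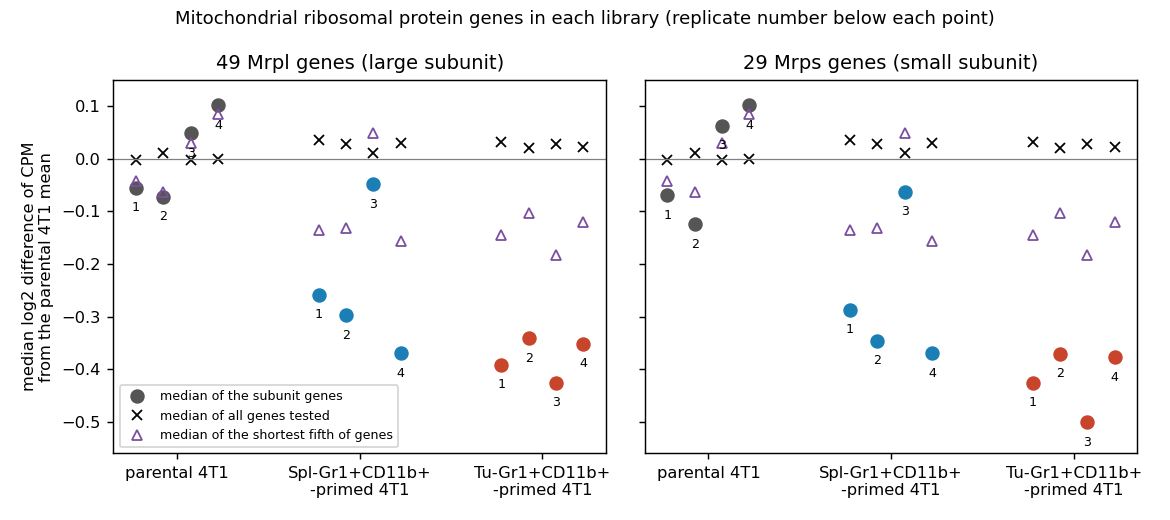
Median log2 difference of CPM from the mean of the parental libraries (vertical axis) for the 49 Mrpl genes (left) and the 29 Mrps genes (right); each filled point is 1 library, crosses give the median of all genes tested and open triangles that of the length class with the shortest transcripts. The Tu-primed Mrpl medians lie between -0.43 and -0.34, while Spl-primed replicate 3, at -0.05, lies among the parental libraries, and in that library the short genes are also higher.

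Counted gene by gene, 38 of 49 Mrpl genes and 26 of 29 Mrps genes were called lower in Tu-primed than in parental cells, at an adjusted p under 0.05 in a quasi-likelihood fit of edgeR whose p-values were adjusted over all genes tested. Over all genes tested 28% were called lower and 31.2% higher in this comparison, and no Mrpl or Mrps gene was called higher. The median log2 fold change was -0.40 for Mrpl and -0.44 for Mrps genes against 0.02 for all genes. The 4 Tu-primed libraries lay wholly below the 4 parental libraries for 39 Mrpl and 25 Mrps genes, where 26.9% of all genes did so. At an unadjusted p under 0.05 the count of higher members was also 0, where at least the same 31.2% of all genes were higher. By DESeq2 it was 0 as well, beside 30.3% of all genes. With scaling to library totals alone 25 Mrpl and 17 Mrps genes were lower and 2 of each subunit higher, beside 14.02% of all genes lower and 47.5% higher.

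In Spl-primed against parental cells, 27 Mrpl and 20 Mrps genes were called lower, beside 22.5% of all genes, and 0 were called higher beside 25.7% of all genes. At an unadjusted p under 0.05, Mrpl50 and Mrps9 were higher, where at least the same 25.7% of all genes were higher. Medians were -0.24 and -0.27, with 0.02 for all genes, and the groups did not overlap for 14 Mrpl and 6 Mrps genes, against 18.3% of all genes. Without Spl-primed replicate 3, 39 Mrpl and 22 Mrps genes were called lower, with medians of -0.30 and -0.38, beside 25.8% of all genes. With scaling to library totals alone, 9 Mrpl and 5 Mrps genes were lower and 3 and 2 higher, with medians of -0.071 and -0.10, beside 8.45% of all genes lower and 42.8% higher. Both comparisons share the 4 parental libraries, so their values for a gene are not independent.

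**Figure D2:**
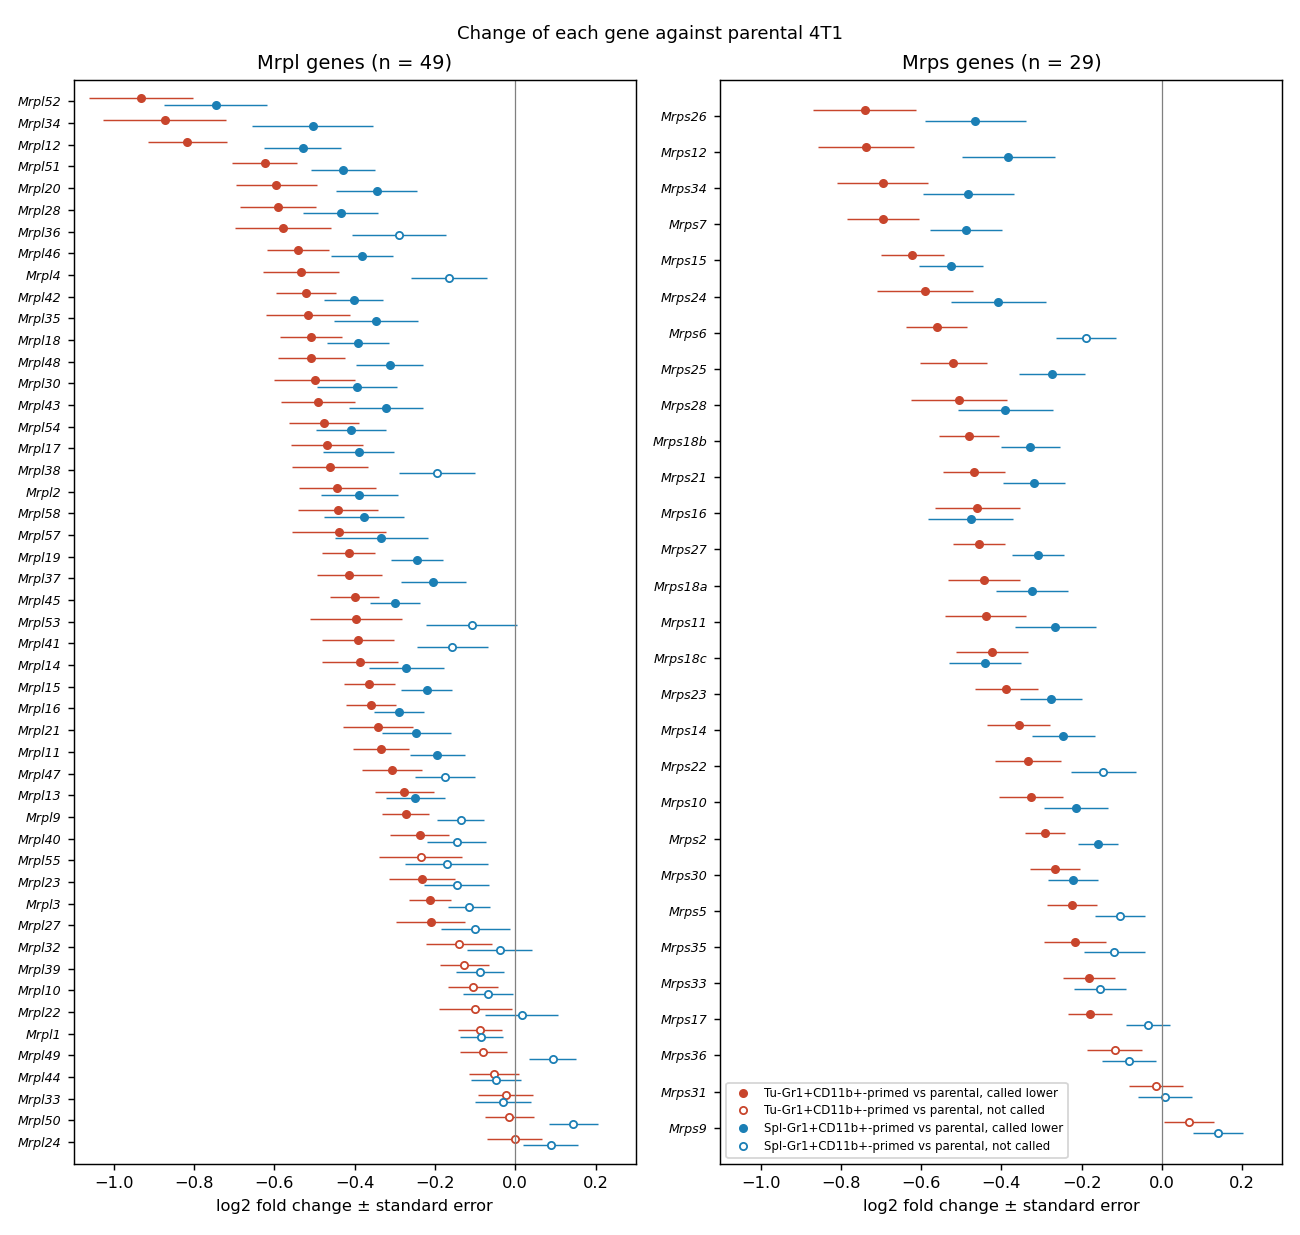
Log2 fold change with its standard error (horizontal axis) of each Mrpl gene (left) and each Mrps gene (right) in Tu-primed (red) and Spl-primed (blue) against parental cells; filled points were called lower at an adjusted p under 0.05 and open points were not called. Tu-primed values run from -0.93 for Mrpl52 to 0.07 for Mrps9, and most lie to the left of the Spl-primed value of the same gene.

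Among the large subunit genes, Mrpl52 differed most from parental cells before any adjustment for gene length. It encodes a protein that mitochondrial ribosomes have and bacterial ones lack, and lies at chr14:54426909-54429756 (GRCm38, plus strand). It stood at 21.0, 19.7, 25.1 and 28.97 CPM in parental, 12.4, 13.7, 17.3 and 13.1 in Spl-primed and 13.7, 12.3, 10.8 and 12.7 in Tu-primed replicates. Every primed library was below every parental one, and the 2 primed groups overlapped. The log2 fold change was -0.93 ± 0.13 (SE, adjusted p = 3.88e-05) in Tu-primed and -0.75 ± 0.13 (adjusted p = 0.000380) in Spl-primed cells, that is, Mrpl52 fell by 47.6% and by 40.4%. Once a trend with gene length was removed from each library, its changes were -0.58 and -0.48. Mrpl12 then changed most of the Mrpl genes in both comparisons (-0.75 and -0.50), and Mrpl34 changed by -0.61 in Tu-primed cells.

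Mrpl34, the counterpart of bacterial ribosomal protein bL34, lies at chr8:71464959-71465747 (plus strand). Its values were 15.4, 13.6, 14.6 and 21.4 CPM in parental, 10.6, 10.5, 15.1 and 9.60 in Spl-primed and 8.69, 8.62, 8.46 and 9.68 in Tu-primed replicates. Tu-primed libraries were below all parental ones, while Spl-primed replicate 3 reached into the parental range. The log2 fold change was -0.87 ± 0.15 (adjusted p = 0.000259) in Tu-primed and -0.51 ± 0.15 (adjusted p = 0.0130) in Spl-primed cells.

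Mrpl12 encodes the stalk protein of the large subunit, which recruits translation factors and has also been described to bind the mitochondrial RNA polymerase. At chr11:120484613-120489065 (plus strand), it was among the more abundant members, with 110.1, 105, 121 and 128 CPM in parental replicates. Spl-primed replicates held 79.0, 78.0, 94.9 and 69.3 CPM and Tu-primed replicates 62.9, 67.6, 58.4 and 74.5 CPM. The lowest parental library exceeded the highest primed one, and the log2 fold changes were -0.82 ± 0.10 (adjusted p = 1.18e-05) and -0.53 ± 0.10 (adjusted p = 0.000601) for Tu-primed and Spl-primed cells. Mrpl12 had the smallest p of the Mrpl genes in Tu-primed cells.

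Mrpl51 and Mrpl42, which have no bacterial counterpart, fell with less spread. Mrpl51 (chr6:125191801-125196269, plus strand) stood at 56.7, 56.8, 66.3 and 69.1 CPM in parental, 48.3, 43.0, 50.8 and 42.6 in Spl-primed and 40.2, 40.0, 37.5 and 43.8 in Tu-primed replicates. Its change was -0.62 ± 0.08 (adjusted p = 2.18e-05) in Tu-primed and -0.43 ± 0.08 (adjusted p = 0.000698) in Spl-primed cells, with no overlap with parental cells in either. Mrpl42 (chr10:95480805-95501940, minus strand) went from 62.8 to 77.7 CPM in parental libraries to 49.2 to 58.6 in Spl-primed and 44.7 to 50.9 in Tu-primed ones. Its log2 fold change was -0.40 ± 0.07 (adjusted p = 0.000586) in Spl-primed and -0.52 ± 0.07 (adjusted p = 4.48e-05) in Tu-primed cells.

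Among small subunit genes, the smallest p in Tu-primed cells were those of Mrps15 and Mrps7, both with bacterial counterparts that bind ribosomal RNA early in assembly. Mrps15 (chr4:126046925-126055532, plus strand) stood at 34.8, 33.7, 37.5 and 41.9 CPM in parental, 26.8, 24.6, 28.0 and 23.4 in Spl-primed and 24.1, 26.2, 23.0 and 22.9 in Tu-primed replicates. Here Spl-primed replicate 3 was no exception, and all 8 primed libraries were below the parental ones. The log2 fold change was -0.62 ± 0.08 (adjusted p = 1.95e-05) in Tu-primed and -0.53 ± 0.08 (adjusted p = 0.000141) in Spl-primed cells.

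Mrps7 (chr11:115603925-115608036, plus strand) went from 60.0, 60.0, 68.6 and 74.4 CPM in parental to 45.0, 47.7, 54.0 and 40.7 in Spl-primed and 41.0, 41.3, 37.2 and 42.8 in Tu-primed replicates. The primed libraries again lay below all parental ones, and the log2 fold changes were -0.49 ± 0.09 (adjusted p = 0.000578) in Spl-primed and -0.70 ± 0.09 (adjusted p = 2.08e-05) in Tu-primed cells. Among the other small subunit genes with large folds, Mrps34, a protein of the mammalian small subunit, changed by -0.70 ± 0.11 (adjusted p = 0.000147) in Tu-primed and -0.48 ± 0.11 (adjusted p = 0.00312) in Spl-primed cells.

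Mrps12, whose bacterial counterpart sits in the decoding center, was one of the least abundant members. It had 13.6, 11.7, 15.5 and 15.6 CPM in parental, 11.2, 10.2, 12.2 and 9.70 in Spl-primed and 7.77, 8.04, 7.65 and 10.3 in Tu-primed replicates. Tu-primed replicate 4 was higher than the other 3, yet below every parental library, and the change was -0.74 ± 0.12 (adjusted p = 0.000126). In Spl-primed cells it was -0.38 ± 0.12 (adjusted p = 0.0144), with groups that overlapped.

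Mrps26 had the largest fold of the Mrps genes in Tu-primed cells, -0.74 ± 0.13 (adjusted p = 0.000220), from 43.9, 37.4, 50.7 and 57.7 CPM in parental to 28.6, 27.1, 26.9 and 30.9 CPM in Tu-primed replicates. Most of its reads were assigned to transcript Mrps26-201, which the annotation lists as a retained intron although it is shorter (effective length 808 bases) than the protein-coding Mrps26-202 (4029 bases). Both fell, from 34.6 to 24.99 and from 8.72 to 4.62 CPM of all reads in the group means. Restricted to protein-coding transcripts, the change was -1.07.

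The 3 Mrps18 genes encode homologs of 1 bacterial protein, of which the Mrps18a protein is placed in the large subunit, as is the Mrps30 protein, while those of Mrps18b and Mrps18c belong to the small subunit. All 3 were lower in Tu-primed cells. Mrps18a changed by -0.44 ± 0.09 (adjusted p = 0.000789), Mrps18b by -0.48 ± 0.07 (adjusted p = 9.21e-05) and Mrps18c by -0.42 ± 0.09 (adjusted p = 0.00103). With the trend on gene length removed, Mrps18c lost its call (-0.15, adjusted p = 0.0629), while Mrps18a (-0.28) and Mrps18b (-0.36) kept theirs. In Spl-primed cells the same genes changed by -0.32 ± 0.09, -0.33 ± 0.07 and -0.44 ± 0.09 (adjusted p = 0.00873, 0.00249 and 0.00117). Mrps30 changed by -0.27 ± 0.06 (adjusted p = 0.00232) in Tu-primed and -0.22 ± 0.06 (adjusted p = 0.00969) in Spl-primed cells. Moving Mrps18a and Mrps30 to the large subunit gave 40 of 51 large and 24 of 27 small subunit genes called lower in Tu-primed cells, beside 28% of all genes.

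Not every member was lower. In Tu-primed cells 11 Mrpl and 3 Mrps genes were not called, and Mrps9 was the only member with a positive estimate. Mrps9, homologous to a bacterial protein of the small subunit head, stood at 34.5, 34.3, 33.4 and 33.4 CPM in parental, 38.4, 35.6, 41.5 and 33.7 in Spl-primed and 34.1, 36.9, 36.1 and 35.0 in Tu-primed replicates. The groups overlapped, and the estimates were 0.07 ± 0.06 (adjusted p = 0.366) and 0.14 ± 0.06 (adjusted p = 0.0805). Mrpl50 had 28.4, 30.1, 28.0 and 27.9 CPM in parental against 28.2, 29.5, 27.9 and 27.7 CPM in Tu-primed replicates, with an estimate of -0.02 ± 0.06 (adjusted p = 0.847). Mrps9 and Mrpl50 were chosen for naming after their values were seen.

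Mrpl33, the counterpart of bacterial bL33, was the most abundant Mrpl gene per length, with a mean TPM (transcripts-per-million) of 233. It held 50.7, 49.1, 52.1 and 51.3 CPM in parental, 48.1, 47.1, 55.4 and 48.2 in Spl-primed and 47.2, 55.9, 51.1 and 45.7 in Tu-primed replicates, so that the groups overlapped (-0.02 ± 0.07, adjusted p = 0.788, in Tu-primed cells). Its call changed with the processing. The estimate was -0.23 (adjusted p = 0.0216) for protein-coding transcripts alone, -0.25 (adjusted p = 0.0167) with a transcript length offset and -0.27 (adjusted p = 0.0112) from the authors' normalized counts with limma, but 0.28 (adjusted p = 0.000687) once a trend with gene length was removed from each library. The most abundant Mrps gene per length, Mrps21, at a mean of 346 TPM, changed by -0.47 ± 0.08 (adjusted p = 0.000165) in Tu-primed cells, and by -0.10 (adjusted p = 0.0814) with the length trend removed. Mrps36, whose protein is now assigned to the alpha-ketoglutarate dehydrogenase complex rather than to the ribosome, had estimates of -0.12 ± 0.07 (adjusted p = 0.148) and -0.08 ± 0.07 (adjusted p = 0.330).

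**Figure D3:**
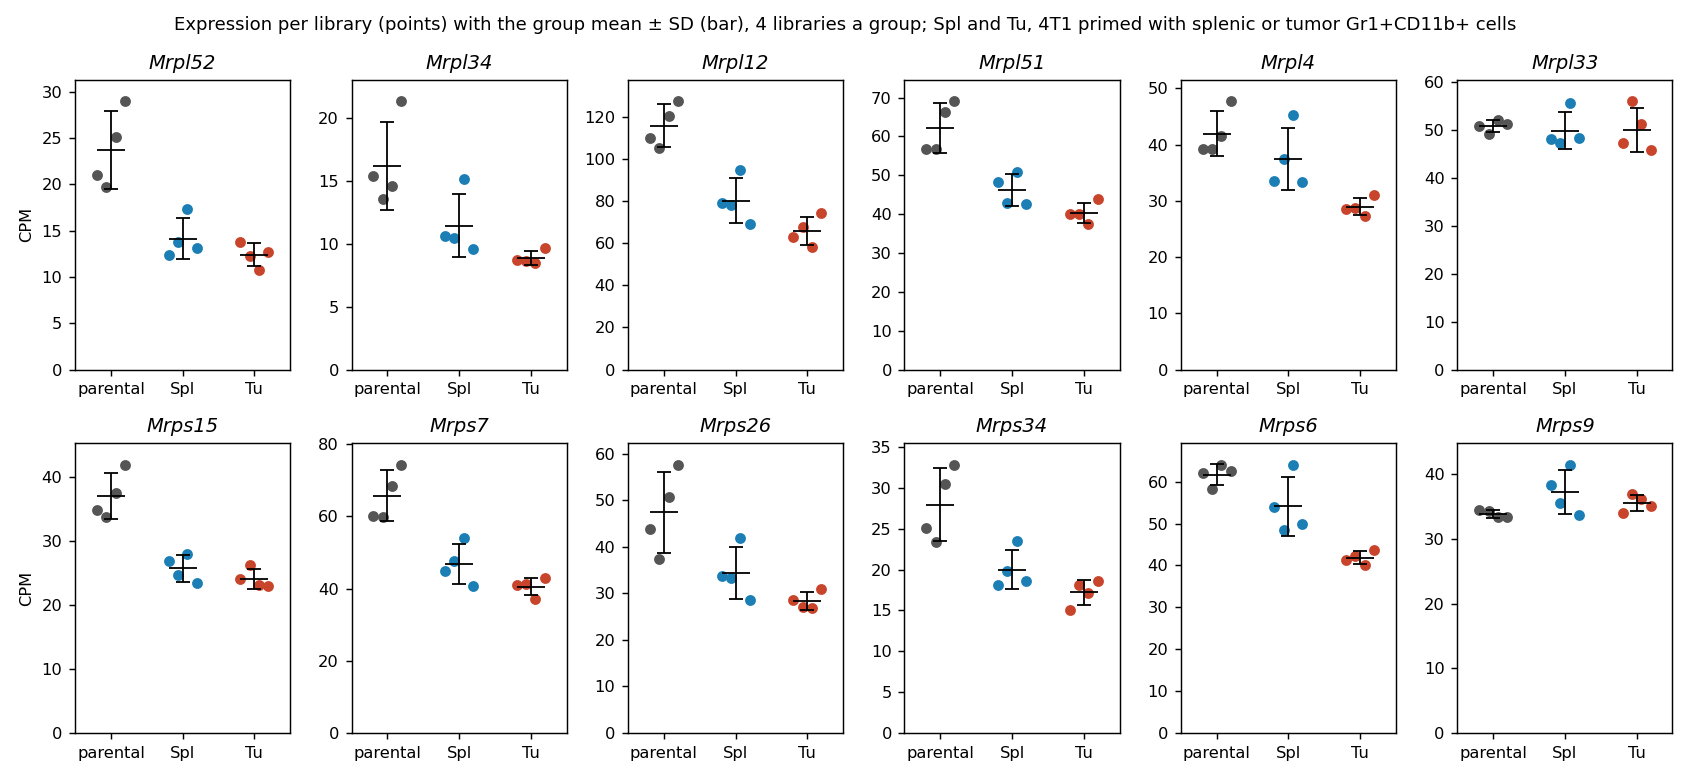
Expression of 12 members in CPM (vertical axes, from 0) in each library (points) with the group mean and SD (bars), for parental, Spl-primed and Tu-primed cells with 4 libraries each. Mrpl12, for example, falls from 105 to 128 CPM in parental libraries to 58.4 to 74.5 CPM in Tu-primed ones, while Mrpl33 and Mrps9 overlap between groups.

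Tu-primed and Spl-primed cells were compared directly to ask whether the origin of the Gr1+ cells mattered. Mrpl4 and Mrps6 were called lower in Tu-primed than in Spl-primed cells, 1 gene of each subunit, beside 2.97% of all genes called lower and 4.66% called higher. No Mrpl or Mrps gene was called higher. The 4 Tu-primed libraries lay wholly below the 4 Spl-primed ones for 8 Mrpl and 2 Mrps genes, where 8.51% of all genes did so, and wholly above them for 0 members, against 8.51% of all genes. The medians were -0.12 for both subunits and -0.01 for all genes. Of the members' estimates 75 of 78 were negative, beside 6757 of 12555 over all genes tested. Without Spl-primed replicate 3 the medians were -0.04 for both subunits, and 0 Mrpl genes and 1 Mrps gene were called lower. Of all genes in that fit, 2.05% were called lower and 4.66% higher, with a median of -0.0015.

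Mrps6, a homolog of a bacterial protein of the small subunit platform (chr16:92058270-92112227, plus strand), stood at 41.3, 42.4, 40.0 and 43.6 CPM in Tu-primed, 54.0, 48.5, 64.1 and 49.9 in Spl-primed and 62.0, 58.1, 63.9 and 62.6 in parental replicates. Tu-primed libraries lay below all others, while 3 of 4 Spl-primed libraries lay below the parental ones. The difference between Tu-primed and Spl-primed cells was -0.37 ± 0.08 (adjusted p = 0.00775) and remained called without Spl-primed replicate 3 (-0.26). Against parental cells the estimates were -0.56 ± 0.08 (adjusted p = 3.16e-05) in Tu-primed and -0.19 ± 0.08 (adjusted p = 0.0513) in Spl-primed cells.

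Mrpl4, whose bacterial counterpart lines the exit tunnel (chr9:21002738-21008839, plus strand), had 28.6, 28.8, 27.4 and 31.0 CPM in Tu-primed, 33.5, 37.5, 45.3 and 33.4 in Spl-primed and 39.3, 39.2, 41.6 and 47.7 in parental replicates. Tu-primed libraries were below all others. The difference from Spl-primed cells was -0.37 ± 0.10 (adjusted p = 0.0284), and without Spl-primed replicate 3 it was -0.25 (adjusted p = 0.0828). Over the other settings tried its adjusted p ranged from 0.00560 to 0.101. Apart from leaving out that library and from centered TPM, the settings that lost the call had estimates of -0.38 to -0.34.

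As a share of each library, Mrpl reads took 0.180%, 0.176%, 0.185% and 0.187% in parental, 0.166%, 0.166%, 0.198% and 0.161% in Spl-primed and 0.158%, 0.166%, 0.151% and 0.164% in Tu-primed replicates. The Mrps share was 0.0956%, 0.0932%, 0.101% and 0.0998% in parental, 0.0886%, 0.0881%, 0.105% and 0.0856% in Spl-primed and 0.0837%, 0.0870%, 0.0801% and 0.0850% in Tu-primed replicates. Tu-primed shares were below all parental ones, and Spl-primed replicate 3 held the highest share of all 12 libraries for both subunits. In summed TPM, which divides the reads of each transcript by its effective length, the group means did not fall: Mrpl genes summed to 3029 ± 147 (SD, n = 4) in parental, 3306 ± 206 in Spl-primed and 3133 ± 101 in Tu-primed cells, and Mrps genes to 1822 ± 105, 1956 ± 101 and 1837 ± 44.1. Primed and parental libraries overlapped in these sums, except for Mrpl genes in Spl-primed cells, where all 4 libraries were above the parental ones.

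The TPM scale itself shifted between groups. The 13 mitochondrially encoded mRNAs took 4.24% to 6.73% of the reads in parental and 2.09% to 3.15% in primed libraries, and their part in the shift was not tested. The median difference in log2(TPM + 1) over all genes tested was 0.40 for Tu-primed and 0.34 for Spl-primed against parental cells, beside 0.07 and 0.18 for Mrpl and 0.03 and 0.11 for Mrps genes. With each library centered on that shift, medians were -0.33 and -0.37 in Tu-primed and -0.17 and -0.24 in Spl-primed cells, and limma called 31 Mrpl and 24 Mrps genes lower in Tu-primed cells, beside 23.8% of all genes. The ratio of large to small subunit TPM was 1.66 ± 0.0196 (SD, n = 4) in parental, 1.69 ± 0.0189 in Spl-primed and 1.71 ± 0.0484 in Tu-primed cells.

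Most members have short transcripts, with a median effective length of 677 bases against 2126 for all genes tested, and short genes as a class were lower in primed cells. With all genes split by length into 5 classes of equal size, 63 of the 78 members were in the shortest class (up to 1079 bases). In that class the other 2448 genes had a median change of -0.13 in Tu-primed cells with 39.2% called lower, while the 63 members had a median of -0.44 with 57 called lower. In Spl-primed cells the values were -0.09 and 31.0% for the other genes and -0.28 with 41 of 63 for the members. Between Tu-primed and Spl-primed cells the medians in that class were -0.06 for the other genes and -0.12 for the members. The remaining 15 members had longer transcripts, and among 9 members in the next class the Tu-primed median was -0.11 with 4 called lower, where the other genes of that class had a median of 0.02 with 29.4% called lower.

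With a smooth trend of expression on gene length removed from each library, the Tu-primed medians were -0.20 for Mrpl and -0.28 for Mrps genes, and 35 and 20 genes were called lower, beside 30.1% of all genes in that fit. In Spl-primed cells the medians were -0.15 and -0.20, with 26 and 17 called lower, beside 26.2% of all genes. Mrpl33 was then called higher in both comparisons, as were Mrpl24 and Mrps9 in Spl-primed cells. Of all genes in that fit, 32.4% were called higher in Tu-primed and 27.5% in Spl-primed cells. The deposited effective lengths were the same in all 12 libraries, and what varied was the level of short against long genes. The part of length in the members' change was not tested beyond this fit.

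**Figure D4:**
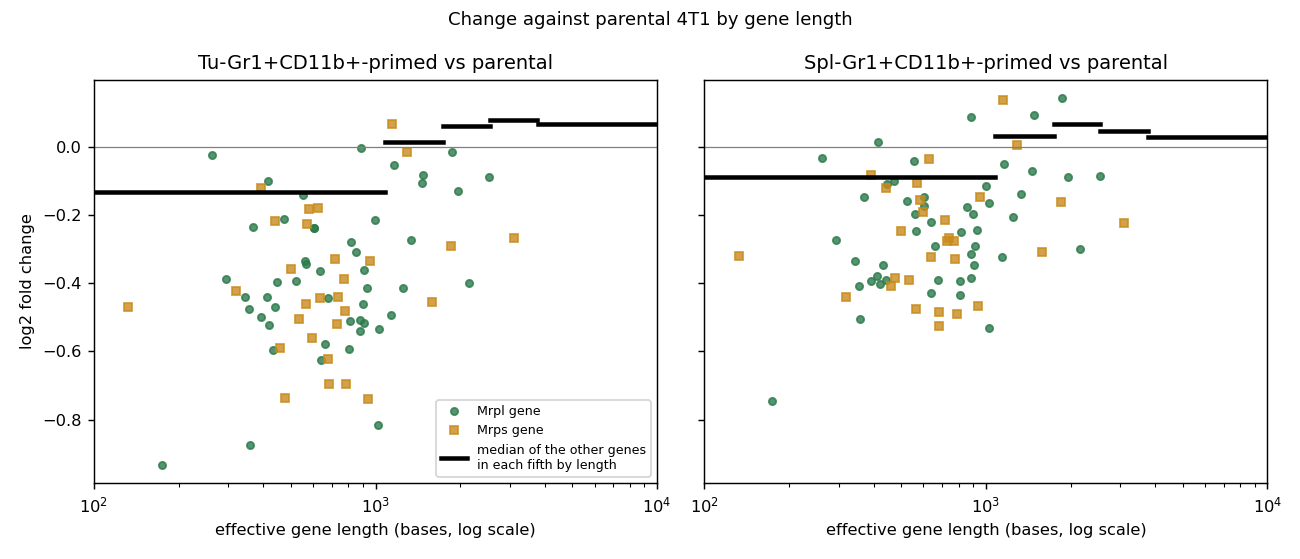
Log2 fold change against parental cells (vertical axis) by effective gene length in bases (horizontal axis, log scale) for Mrpl (circles) and Mrps (squares) genes in Tu-primed (left) and Spl-primed (right) cells; black bars give the median of the other genes in each of 5 classes by length. In the shortest class the bar lies at -0.13 in Tu-primed cells, and the members there, with a median of -0.44, lie mostly below it.

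The tables also separate transcripts by class. The 78 genes have 343 annotated transcripts in GENCODE M21, of which 170 are protein coding, 88 retained introns and 24 NMD targets. Retained-intron and NMD transcripts took 7.499% to 7.95% of Mrpl reads in parental, 9.83% to 10.6% in Spl-primed and 9.29% to 10.6% in Tu-primed libraries, so that all primed libraries lay above all parental ones and the primed groups overlapped. For Mrps reads the share was 13.9% to 15.1%, 15.3% to 16.5% and 15.5% to 16.5%. Among members with a mean of at least 5 such reads, the share was higher in all Tu-primed than in all parental libraries for 9 of 27 Mrpl and 8 of 16 Mrps genes, where 43.2% of 5900 genes did so. It was lower for 0 members, against 1.2% of genes. In Spl-primed cells the share was higher for 10 and 7 members, against 39.6% of genes, and lower for 0, against 1.14%. Between the primed groups it was higher in Tu-primed cells for 2 Mrpl and 1 Mrps genes, against 3.08% of genes, and lower for Mrpl38, against 1.31%. These shares lie near those of all genes.

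Among members whose Tu-primed and parental libraries did not overlap, the widest shifts in this share were those of Mrps10, Mrpl33 and Mrpl37. Mrps10, a homolog of a bacterial protein of the small subunit head, had 7.90%, 12.4%, 8.22% and 5.46% of its reads on such transcripts in parental, 21.0%, 21.4%, 19.8% and 25.4% in Spl-primed and 22.7%, 24.1%, 24.3% and 22.5% in Tu-primed replicates. All primed libraries lay above all parental ones. For Mrpl33 a retained-intron transcript held 1.43 CPM of all reads (1.00 to 2.05) in the mean of parental and 8.96 (7.56 to 10.7) in that of Tu-primed cells, beside 44.0 and 41.4 for the main protein-coding transcript.

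For Mrpl37, a protein specific to mitochondrial ribosomes, the share was 1.48% to 4.13% in parental, 11.1% to 14.0% in Spl-primed and 12.4% to 18.3% in Tu-primed libraries. Mrpl58, a peptidyl-tRNA hydrolase built into the large subunit that frees stalled ribosomes, had the widest shift of means, with 9.03% to 27.7%, 29.1% to 48.0% and 19.8% to 38.7%, but its Tu-primed and parental libraries overlapped. Assignment of reads to overlapping transcripts is an estimate, and these values carry that uncertainty. With protein-coding transcripts alone, 35 Mrpl and 21 Mrps genes were called lower in Tu-primed and 20 and 17 in Spl-primed cells, beside 25.97% and 19.6% of all genes tested in that way.

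**Figure D5:**
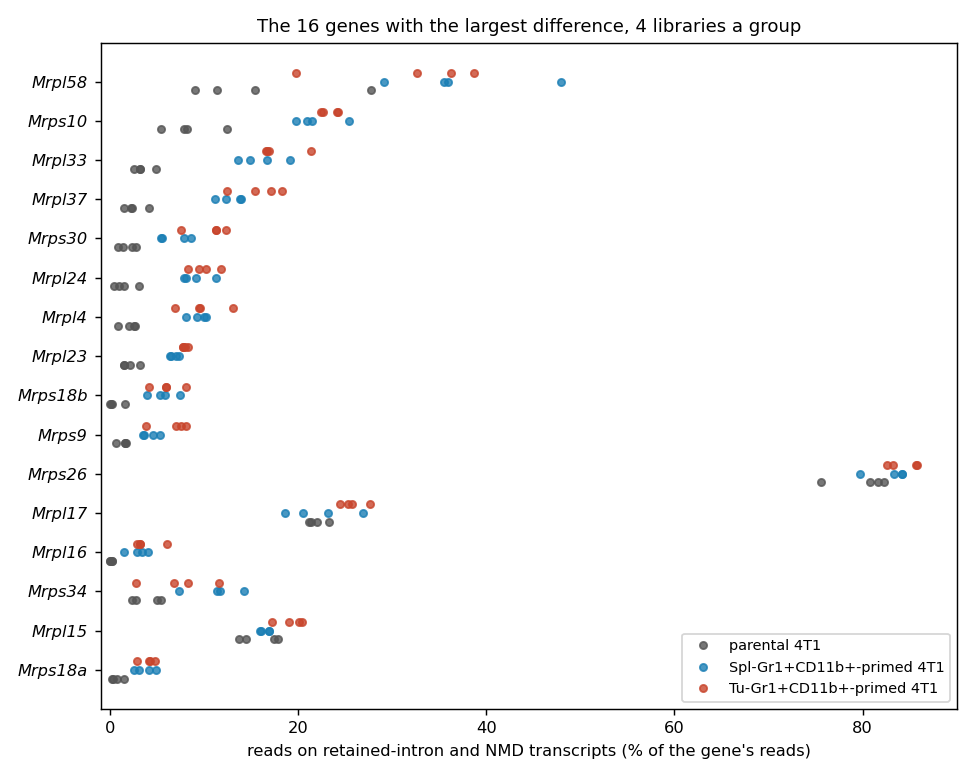
Share of the reads of a gene on retained-intron and NMD transcripts (horizontal axis, percent) in each library of parental (grey), Spl-primed (blue) and Tu-primed (red) cells, for the 16 members with the largest difference between Tu-primed and parental means. For Mrps10 the parental libraries lie between 5.46% and 12.4% and the primed ones between 19.8% and 25.4%.

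Genes that work with the mitochondrial ribosome were described from lists. Of 5 ribosomal proteins with other symbols, all were lower in Tu-primed and 3 in Spl-primed cells, beside 28% and 22.5% of all genes. Dap3, which binds GTP in the small subunit, changed by -0.42 (adjusted p = 0.000119) and -0.37 (adjusted p = 0.000582). Of 15 translation factors, 6 were lower and 5 higher in Tu-primed cells, near the 28% and 31.2% of all genes. Tufm, the mitochondrial elongation factor Tu, changed by -0.80 (adjusted p = 4.94e-06), while Guf1, a translation GTPase, was higher by 0.56 (adjusted p = 1.72e-05) and Gfm2, a factor for ribosome recycling, by 0.27 (adjusted p = 0.00147).

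Of 24 factors for assembly of the ribosome and maturation of its RNA, 7 were lower and 6 higher in Tu-primed cells, and 4 lower and 11 higher in Spl-primed cells, beside 28% and 31.2% of all genes in the former and 22.5% and 25.7% in the latter. Noa1, a GTPase needed for the small subunit, changed by -0.65 (adjusted p = 2.99e-05) in Tu-primed cells, and Mterf3, which acts on mitochondrial transcription and ribosome formation, by 0.60 (adjusted p = 3.51e-05). Of 20 mitochondrial aminoacyl-tRNA synthetases and amidotransferase subunits, 5 were lower and 3 higher in Tu-primed and 1 lower and 5 higher in Spl-primed cells. Of 12 genes for mitochondrial transcription and DNA upkeep, 4 were lower and 4 higher in Tu-primed and 1 lower and 5 higher in Spl-primed cells. The same shares of all genes, 28% and 31.2% in Tu-primed and 22.5% and 25.7% in Spl-primed cells, stand beside these counts.

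Of 26 genes for protein import into mitochondria, 19 were lower and 1 higher in Tu-primed and 16 lower and 2 higher in Spl-primed cells, with medians of -0.39 and -0.27. Nuclear genes for oxidative phosphorylation (66 of 77 lower in Tu-primed cells, median -0.50) and cytosolic ribosomal protein genes (78 of 84 lower, median -0.58) were also lower. Among the mitochondrially encoded mRNAs, which the mitochondrial ribosome translates, 11 of 13 were lower in Tu-primed cells, with a median of -1.34. Over all genes tested, 28% were lower and 31.2% higher in Tu-primed and 22.5% and 25.7% in Spl-primed cells. Genes of these lists are short as well, with a median effective length of 405 bases for the oxidative phosphorylation genes and 392 bases for the cytosolic ribosomal protein genes. Of 10 tested regulators of mitochondrial biogenesis, 2 were lower (Nrf1 by -0.14, adjusted p = 0.0391, and Pprc1, a coactivator of the PGC-1 family, by -0.14, adjusted p = 0.0229) and Gabpa, a subunit of the ETS-type factor NRF2/GABP, was higher by 0.33 (adjusted p = 0.00301) in Tu-primed cells, shares below those of all genes.

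Promoters of genes for mitochondrial proteins often carry sites for NRF1, for ETS factors and for YY1. RefSeq promoters of GRCm38.p6, spanning 250 bases before to 50 bases after the start, were found for 69 of the 78 members (75 promoters). The NRF1 motif (GCGCA, any base, GCGC) was found on either strand in 17.3% of them and in 4.59% of 32817 promoters of all genes. For the ETS motif CCGGAAGT the shares were 16% and 3.89%, for the YY1 motif AAGATGGCG 10.7% and 1.399%, for the E-box CACGTG 9.33% and 7.15%, and for CCAAT 40.0% and 37.4%, and none of these motifs contains another. Overlapping promoters of the same gene were counted separately, as in Mrpl2 for the E-box. The members' promoters had a median GC content of 58.7% against 52.7%, and a match describes letters and not binding. The 250 bases before the start are shown for 3 members called lower in Tu-primed cells, chosen within each subunit for the smallest p among those with an NRF1, ETS or YY1 match and no annotated exon in the stretch. Mrps9 is shown as the member with the highest p among those not called that have any of the 5 motifs and no annotated exon in the stretch. Capitals mark the matches, 2 of NRF1 in Mrpl45 (chr11:97315466-97315715, plus strand), 1 of ETS in Mrpl48 (chr7:100583131-100583380, minus strand) and in Mrps22 (chr9:98601680-98601929, minus strand), and 1 of CCAAT in Mrps9 (chr1:42850983-42851232, plus strand). Mrpl45 and Mrps9 each have 1 more NRF1 match in the searched window, which the printed stretch leaves out because it lies beyond the start (Mrpl45) or runs across it (Mrps9). The Mrpl48 stretch precedes an alternative start inside the gene (chr7:100545751-100608301), and the other 3 Mrpl48 promoters, including those at its 5′ end, held none of the 5 motifs.
Mrpl45: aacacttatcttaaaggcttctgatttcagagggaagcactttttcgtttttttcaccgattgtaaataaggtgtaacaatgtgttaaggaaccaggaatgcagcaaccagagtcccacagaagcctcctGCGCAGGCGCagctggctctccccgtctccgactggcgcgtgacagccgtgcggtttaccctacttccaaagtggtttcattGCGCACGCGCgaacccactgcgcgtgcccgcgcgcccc
Mrpl48: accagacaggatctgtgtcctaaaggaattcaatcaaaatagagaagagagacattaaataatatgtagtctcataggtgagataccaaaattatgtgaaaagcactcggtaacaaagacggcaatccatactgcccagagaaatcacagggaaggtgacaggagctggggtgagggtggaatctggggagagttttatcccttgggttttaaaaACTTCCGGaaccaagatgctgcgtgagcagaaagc
Mrps22: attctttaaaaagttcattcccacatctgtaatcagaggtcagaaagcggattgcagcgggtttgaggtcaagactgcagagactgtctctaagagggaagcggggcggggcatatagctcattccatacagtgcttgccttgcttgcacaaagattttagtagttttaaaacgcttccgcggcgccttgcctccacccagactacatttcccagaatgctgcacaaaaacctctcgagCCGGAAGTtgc
Mrps9: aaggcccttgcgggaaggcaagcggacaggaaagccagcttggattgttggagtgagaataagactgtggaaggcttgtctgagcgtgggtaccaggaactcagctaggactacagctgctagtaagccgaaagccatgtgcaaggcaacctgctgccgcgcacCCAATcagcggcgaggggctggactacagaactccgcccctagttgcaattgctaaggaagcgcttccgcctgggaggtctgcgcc

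Mrpl45, a protein that tethers the large subunit to the inner membrane, changed by -0.40 ± 0.06 (adjusted p = 8.89e-05), Mrpl48 by -0.51 ± 0.08 (adjusted p = 0.00015) and Mrps22 by -0.33 ± 0.08 (adjusted p = 0.00297) in Tu-primed cells. Among promoters of members called lower, 14.8% held the NRF1 and 18.0% the ETS motif, and among the 14 promoters of members not called, 28.6% and 7.14%. For the YY1 motif these shares were 13.1% and 0%, for the E-box 11.5% and 0%, and for CCAAT 37.7% and 50%. The shares count promoters, so overlapping promoters of Mrpl2 each add to the E-box and CCAAT shares of members called lower. No test was made between these shares.

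Many members start head to head with another gene. Within 1000 bases upstream and on the other strand, 18 of 78 members (23.1%) had the start of another protein-coding gene, against 6.76% of 22028 protein-coding genes. In Tu-primed cells 14 of these 18 members were called lower, while of their neighbors 6 were lower, 4 higher, 7 not called and 1 not tested, with a median of -0.04 for the neighbors. Over all genes tested 28% were lower and 31.2% higher. Mrps12 (-0.74) starts 172 bases from Sars2, a mitochondrial seryl-tRNA synthetase (-0.04, adjusted p = 0.733). Mrpl30 (-0.50, adjusted p = 0.000739) starts 66 bases from Mitd1, a gene for a protein of cytokinesis, which was higher by 1.24 (adjusted p = 6.50e-06). Mrps27 (-0.46, adjusted p = 4.38e-05) and Ptcd2, 81 bases away (-0.51, adjusted p = 0.000104), were both lower. Conversely, Mrpl49 (-0.08, adjusted p = 0.255) starts 59 bases from Fau, a cytosolic ribosomal protein gene, which changed by -0.65 (adjusted p = 0.000246).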

How the data were processed

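Total RNA of 4 libraries per group was sequenced (TruSeq Stranded). The submitters' processing notes name FastQC, Trimmomatic 0.39, Salmon 1.4.0 and GRCm38. The annotation release used is not given in the sources used here. The deposited tables hold, per transcript and library, estimated counts, TPM and effective lengths in bases made by the authors' quantification. A deposited gene table holds normalized counts (a scaled signal) that the authors made by a method not given in the sources used here. Estimated counts were summed per gene by GENCODE M21, which held 116021 of 117081 transcripts, and rounded. Genes were tested with edgeR 4.0.16 (TMM, filterByExpr, quasi-likelihood, 12 libraries in 1 fit without block, R 4.3.3), with Benjamini-Hochberg adjustment over 12555 genes and a threshold of 0.05. Limma 3.58.1 and DESeq2 1.42.0 served as alternatives. CPM used TMM library sizes, with a prior count of 2 for log2 values. Per-gene TPM was the sum over transcripts, and log2(TPM + 1) was used. Named genes were, per comparison and subunit, the 3 called with the smallest p and the 3 with the largest fold, the most abundant member per length, the Mrps18 genes, Mrps30, Mrps36 and Mrpl12. The members and lists were chosen with earlier results of these data known. The count test was tested on simulated data. No 2 libraries of the same group agreed within sampling noise.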

Additional observations from a re-analysis of the deposited data

Results flagged for a closer look

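Spl-primed replicate 3 stood far from the other 3 libraries of its group in 4 values. It held 55.4 CPM of Mrpl33 (47.1 to 48.2 in the others) and 41.2 CPM of Mrps21 (34.0 to 34.7). Its reads on Mrpl genes made up 0.198% of the library (0.161% to 0.166%) and those on Mrps genes 0.105% (0.0856% to 0.0886%). In Tu-primed replicate 4, Mrps12 stood at 10.3 CPM (7.65 to 8.04 in the others). These were 5 of 75 groups of 4 values examined by Dixon's criterion, which chance passes in about 1 of 20 groups. The change against parental cells differed between Tu-primed and Spl-primed cells for Mrpl4, by -0.37 (adjusted p = 0.0284 by edgeR), and for Mrps6, by -0.37 (adjusted p = 0.00775). The Mrpl4 call was lost in several settings, among them the replicate block (-0.37) and the fit without Spl-primed replicate 3 (-0.25).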

How the results depend on the processing

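Of 27 results for named genes, 22 kept their call and direction in every setting run for them, the stricter thresholds aside. This count does not cover library totals or centered TPM. With library totals and no factor, chosen after seeing the data, the median of all genes lay at 0.21 in Tu-primed and 0.19 in Spl-primed cells, from 0.02 in both. Calls were then 25 Mrpl and 17 Mrps genes lower and 2 and 2 higher in Tu-primed cells, and 9 and 5 lower and 3 and 2 higher in Spl-primed cells, with medians of -0.21, -0.25, -0.071 and -0.10, beside 14.02% of all genes lower and 47.5% higher in Tu-primed and 8.45% and 42.8% in Spl-primed cells. With the length trend removed, 1 Mrpl gene was higher in Tu-primed cells and 2 Mrpl and 1 Mrps genes in Spl-primed cells, beside 32.4% and 27.5% of all genes. The Tu-primed medians were -0.20 and -0.28, and 4 Mrpl and 2 Mrps genes were lower in Tu-primed than in Spl-primed cells, beside 5.74% of all genes. Mrpl33 then changed by 0.28 and Mrps36 by 0.13. With centered TPM, also chosen after seeing the data, the Tu-primed Mrpl median was -0.33. In Spl-primed cells 2 Mrpl genes were then higher, beside 19.2% of all genes. The call of Mrpl4 between Tu-primed and Spl-primed cells was lost, leaving 0 Mrpl genes, with centered TPM, protein-coding transcripts, a transcript length offset, the authors' normalized counts and the replicate block. In Spl-primed cells 1 Mrpl gene was higher with protein-coding transcripts and with at least 10 counts in every library, beside 22.65% and 26.8% of all genes. At an adjusted p under 0.01, 17 Mrpl and 12 Mrps genes were lower in Spl-primed cells and 0 Mrpl genes between the primed groups. Of all 12555 genes, 1909 and 96 were lower at this threshold. Under 0.05 with an absolute log2 fold change over 1, the members' counts were 0 throughout. All genes then gave 83 lower in Tu-primed cells, 28 in Spl-primed cells and 7 between the primed groups, with 866, 548 and 160 higher. Log2 ratios of summed TPM were 0.049 and 0.014 in Tu-primed and 0.13 and 0.10 in Spl-primed cells, opposite in sign to those of the shares of reads. The cause was not tested.

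Leaving out 1 library at a time gave 36 to 39 Mrpl and 24 to 26 Mrps genes lower in Tu-primed cells. In Spl-primed cells 22 to 39 and 15 to 23 were lower and 0 to 1 and 0 to 1 higher. Between the primed groups 0 to 3 and 1 to 2 were lower. Of all genes in these fits, 24.93% to 30.01% were lower in Tu-primed cells and 0.934% to 4.2% between the primed groups. In Spl-primed cells 18.84% to 25.84% of all genes were lower and 21.76% to 26.69% higher. Mrpl33 ranged from -0.082 to 0.016. Replicate numbers gave no sign of pairing, as correlations of same-numbered libraries ran from -0.164 to 0.148 and 3 of 12 libraries correlated best with their own number. These values cannot show whether same-numbered libraries were cultured or processed together. With the replicate block, 37 Mrpl and 26 Mrps genes were lower in Tu-primed, 27 and 19 in Spl-primed cells, and 0 and 1 between the primed groups. Of all genes in that fit, 26.99%, 21.5% and 2.04% were lower.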
